A study of Mus musculus with 12 samples.

Results

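The 10 macrophage genes *Cd68*, *Csf1r*, *Mrc1*, *Cd163*, *Lyz2*, *C1qa*, *C1qb*, *C1qc*, *Cd14* and *Itgam* were followed in epididymal white fat (EWAT) and in heart ventricles of MED13cTg mice and their wild-type (WT) littermates. They were chosen by name, though with earlier results of these data known, and each had 1 entry of its own among the 23042 entries of each tissue's table. All 10 averaged at least 1 FPKM (fragments scaled to transcript length and to the library's total of mapped fragments) over the 6 libraries of each tissue and so entered both tests. MED13cTg mice carry a transgene that expresses MED13, a subunit of the Mediator complex, in the heart; the promoter is not named in the sources used here. The 4 groups were WT ventricles, MED13cTg ventricles, WT EWAT and MED13cTg EWAT, with 3 libraries each, replicates 1 to 3. All mice were males on the C57BL/6 strain, aged 6 weeks by the labels, fed normal chow ad libitum, and their tissue was taken late in the afternoon. RNA came from whole frozen tissue, so the macrophage genes were measured against the RNA of every other cell in the piece. The question put to these genes was whether macrophage RNA in fat and heart differed between the genotypes.

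Tissue macrophages are resident phagocytes that clear dying cells and debris. They arise from embryonic precursors or from blood monocytes and depend on signalling through the CSF1 receptor. In fat they sit between adipocytes and their number is known to increase in obesity, and in heart they lie among cardiomyocytes, endothelial cells and fibroblasts. In whole tissue, fewer cells of a type and less RNA per cell cannot be told apart.

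The genes cover several roles. *Csf1r* encodes the receptor that macrophages need for survival, and *Cd68* encodes a glycoprotein of their lysosomes. *Lyz2* encodes the lysozyme of macrophages and granulocytes. *C1qa*, *C1qb* and *C1qc* encode the chains of C1q, which starts the classical complement pathway. *Cd14* encodes a co-receptor for bacterial endotoxin, *Itgam* the integrin CD11b, *Mrc1* the mannose receptor CD206, and *Cd163* the scavenger receptor for haemoglobin bound to haptoglobin. On the mm9 build of the mouse genome named in the labels, the tables place *C1qb* at chr4:136436060-136442092, *C1qc* at chr4:136445716-136448829 and *C1qa* at chr4:136451830-136454759, side by side. *Cd68* lies at chr11:69477872-69479567, *Cd163* at chr6:124254668-124280545, *Mrc1* at chr2:14151040-14253650, *Lyz2* at chr10:116714596-116719328 and *Itgam* at chr7:135206153-135262005.

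Promoters were available for 7 of the 10 genes in RefSeq (GRCm38.p6), as 300 bases from 250 before to 50 after the start. They were searched on both strands for GAGGAA, the core of the site of PU.1, a transcription factor of the myeloid lineage; its reverse complement is TTCCTC. Matches were found in 5 of the 7 promoters, those of *C1qb*, *C1qc*, *Cd68*, *Itgam* and *Mrc1*, and none in those of *Cd163* and *Lyz2*, whereas 28.3% of 32851 promoters of this length held one. A match is a description of these letters only. Shown here are *C1qb* and *C1qc*, neighbouring genes whose levels moved together from library to library, and *Cd68*, the reference of the ratios given later. All 3 genes are on the minus strand, the sequences run 5′ to 3′ in the direction of the gene, and capitals mark the matches. The *C1qb* promoter is chr4:136886151-136886450, with a match at position -30, that of *C1qc* is chr4:136892865-136893164, with a match at -193, and that of *Cd68* is chr11:69666121-69666420, with matches at -225 and 30, all counted from the start to the first base of the match.
C1qb: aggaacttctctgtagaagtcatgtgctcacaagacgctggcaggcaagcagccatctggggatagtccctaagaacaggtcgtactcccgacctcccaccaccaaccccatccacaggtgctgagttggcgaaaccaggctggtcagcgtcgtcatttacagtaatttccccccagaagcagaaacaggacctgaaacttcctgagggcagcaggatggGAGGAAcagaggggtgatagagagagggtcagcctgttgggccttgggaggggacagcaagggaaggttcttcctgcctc
C1qc: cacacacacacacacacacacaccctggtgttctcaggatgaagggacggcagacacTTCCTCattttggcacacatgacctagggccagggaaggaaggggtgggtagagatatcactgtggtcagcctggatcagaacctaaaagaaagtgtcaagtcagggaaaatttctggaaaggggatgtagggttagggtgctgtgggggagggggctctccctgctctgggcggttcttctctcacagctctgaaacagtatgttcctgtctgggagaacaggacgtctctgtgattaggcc
Cd68: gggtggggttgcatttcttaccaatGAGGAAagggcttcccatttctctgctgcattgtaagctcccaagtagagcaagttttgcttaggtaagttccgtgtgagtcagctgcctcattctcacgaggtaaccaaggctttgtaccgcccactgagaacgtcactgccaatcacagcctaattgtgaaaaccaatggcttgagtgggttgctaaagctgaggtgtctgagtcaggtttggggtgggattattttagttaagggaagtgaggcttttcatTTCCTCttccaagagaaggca

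Some facts of the whole series bear on these genes. *Med13* itself was at 10.6 to 13.1 FPKM in WT ventricles and at 181 to 263 FPKM in MED13cTg ventricles (log2 fold change 4.08, limma adjusted p = 0.000281), while in EWAT the range was 9.43 to 10.9 FPKM for WT and 7.84 to 11.0 FPKM for MED13cTg mice. In EWAT, MED13cTg replicates 1 and 2 stood apart: over all genes, the rank correlation of replicate 1 with any other library was between 0.350 and 0.494, against 0.958 to 0.972 among the WT libraries. The 8 epididymis markers summed to 51489 to 64531 FPKM in WT EWAT, to 50191 FPKM in MED13cTg replicate 3, to 8486 FPKM in replicate 1 and to 187 FPKM in replicate 2, and exceeded the adipocyte markers in every WT library. The 7 testis germ cell markers summed to 213 to 303 FPKM in WT EWAT, but to 13638, 5.83 and 344 FPKM in MED13cTg replicates 1, 2 and 3. In the ventricles the correlations between libraries were 0.944 to 0.969. Clustering on these correlations, with the number of clusters set at 2, cut across genotype. It put WT replicate 1 beside MED13cTg replicates 1 and 2, and WT replicates 2 and 3 beside MED13cTg replicate 3. The clusters were close: the lowest correlation within a cluster was 0.959 and the highest between clusters was 0.957.

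In EWAT, none of the 10 genes passed the test between genotypes, and the 3 MED13cTg libraries differed more from each other than the genotypes did. MED13cTg replicate 1 was the lowest and replicate 2 the highest of the 6 libraries for 9 of the 10 genes, all but *Mrc1*. The same order held for 19.7% of the 14967 genes tested. MED13cTg replicate 3 lay within the range of the WT libraries for all 10 genes, against 55.8% of the genes tested.

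*Csf1r* stood at 7.44, 13.9 and 12.9 FPKM in the WT littermates and at 4.88, 24.1 and 11.8 FPKM in MED13cTg EWAT. The lowest and the highest library were both transgenic, so the groups overlapped. Its means were 11.4 ± 3.47 and 13.6 ± 9.75 FPKM (SD, n = 3 each), a log2 fold change of 0.04 ± 0.58 (SE).

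*Cd68* stood at 11.7, 15.5 and 15.8 FPKM in the WT group and at 3.57, 29.3 and 13.6 FPKM in MED13cTg EWAT. Replicate 2 held 8.23 times the level of replicate 1, both MED13cTg. The means were 14.3 ± 2.29 and 15.5 ± 12.996 FPKM (SD, n = 3 each) and the log2 fold change was -0.27 ± 0.70 (SE). *Lyz2*, the most abundant of the 10 in every one of the 12 libraries, was at 58.1, 139 and 117 FPKM in WT mice and at 42.7, 262 and 82.9 FPKM in MED13cTg EWAT. Its mean was 105 ± 41.7 FPKM for WT and 129 ± 117 FPKM in MED13cTg EWAT (SD, n = 3 each). The closely related lysozyme gene *Lyz1* had its own entry, at 5.43 to 46.4 FPKM in EWAT and 18.7 to 33.2 FPKM in ventricles, and the split of fragments between the pair is uncertain.

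The C1q genes moved together from library to library. *C1qa* was at 42.0, 86.0 and 88.7 FPKM across the WT libraries and at 22.4, 131 and 60.2 FPKM in MED13cTg EWAT. *C1qb* was measured at 47.2, 95.8 and 78.1 FPKM in the WT littermates and at 28.1, 118 and 61.3 FPKM in MED13cTg EWAT. *C1qc* stood at 43.9, 74.3 and 76.1 FPKM in the WT group and at 22.6, 121 and 53.6 FPKM in MED13cTg EWAT. All 3 had WT replicate 1 as the lowest WT library and overlapped between the genotypes, with log2 fold changes of -0.28, -0.26 and -0.24.

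*Cd14* was even across the WT EWAT libraries, at 6.07, 7.20 and 6.56 FPKM, and uneven across the MED13cTg libraries, at 2.44, 15.3 and 6.29 FPKM. *Itgam*, the lowest of the 10 in 11 of the 12 libraries, was at 1.12, 1.96 and 1.78 FPKM in WT mice and at 0.628, 3.40 and 1.51 FPKM in MED13cTg EWAT. *Cd163* stood at 1.42, 4.91 and 4.13 FPKM across the WT libraries and at 0.572, 11.5 and 3.62 FPKM in MED13cTg EWAT. Its 20.2-fold range between MED13cTg replicates 1 and 2 was the widest of the 10 genes.

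*Mrc1* differed from the others in its order. It was at 2.73, 6.86 and 6.04 FPKM in the WT littermates and at 7.37, 15.7 and 5.01 FPKM in MED13cTg EWAT. MED13cTg replicate 1, which lay at 0.164 to 0.428 of the WT mean for the other 9 genes, was at 1.41 times the WT mean for *Mrc1*, above every WT library. The mean was 5.21 ± 2.19 FPKM for WT and 9.37 ± 5.63 FPKM in MED13cTg mice (SD, n = 3 each), and the log2 fold change of 0.68 ± 0.50 (SE) did not pass the test (limma adjusted p = 0.738). It was 0.26 without MED13cTg replicate 2, 0.34 without WT replicate 1 and 1.00 without MED13cTg replicate 3.

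**Figure D1:**
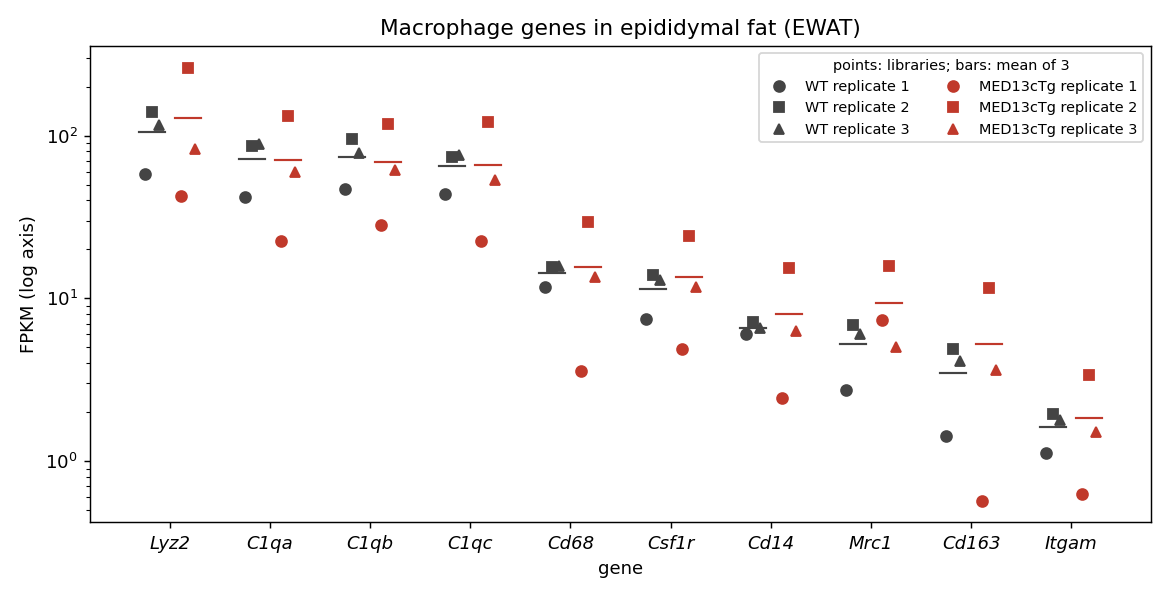
FPKM of the 10 macrophage genes in EWAT on a log axis, with 1 point for each library (grey, WT; red, MED13cTg; circle, square and triangle, replicates 1, 2 and 3) and a bar at each mean of 3. MED13cTg replicate 1 lies lowest and replicate 2 highest for every gene but *Mrc1*.

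Over the 10 genes the EWAT log2 fold changes ran from -0.28 for *C1qa* to 0.68 for *Mrc1*, with adjusted p of 0.738 to 0.998. Their median was -0.018, beside 0.012 over all genes tested. Of the 10 genes 4 had a fold change above 0, where 50.7% of all genes did. No member passed an adjusted p under 0.05 (2 of 14967 genes, 0.0134%, did, and 0 did with the replicate number as a block), and none had an unadjusted p under 0.05 (1.25% of genes). No gene among the 10 had all MED13cTg libraries above all WT libraries (4.88% of genes) or all below (7.8%). The 95% intervals were wide, from -1.94 to 2.15 on the log2 scale for *Cd163* and from -1.13 to 1.16 for *Itgam*, so differences of up to 1.13 in either direction were inside it even for *Itgam*, the gene with the narrowest interval. Without MED13cTg replicate 1 the median log2 fold change of the 10 genes was 0.49, and without MED13cTg replicate 2 it was -0.67, with none of the 10 passing in either case.

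Marker lists of other cells moved with this order. The 6 adipocyte markers summed to 10160, 27749 and 18796 FPKM in WT EWAT and to 901, 60450 and 14474 FPKM in MED13cTg EWAT. All 6 of them, all 5 endothelial markers and 3 of the 4 fibroblast markers had MED13cTg replicate 1 lowest and replicate 2 highest. The 10 macrophage genes summed to 222, 445 and 407 FPKM for WT and to 135, 732 and 300 FPKM in MED13cTg EWAT. Set against the adipocyte sum of the same library, they came to 2.18, 1.60 and 2.17 FPKM per 100 FPKM of adipocyte markers in WT, and to 15.0, 1.21 and 2.07 in MED13cTg EWAT. On this scale MED13cTg replicate 3 lay within the WT range, replicate 2 below every WT library and replicate 1 above them all, with the lowest adipocyte sum of the 6. Sums of neutrophil, T cell, B cell and mast cell markers overlapped between the genotypes in EWAT: summed FPKM ran from 7.09 to 49.6 and from 4.55 to 10.4 for 8 neutrophil markers, from 4.80 to 8.47 and from 4.22 to 10.02 for 6 T cell markers, and from 2.34 to 6.85 and from 2.95 to 6.94 for 5 B cell markers, and from 6.15 to 7.31 and from 5.60 to 11.8 for 5 mast cell markers, WT first. The summed FPKM of 5 dendritic cell markers did not overlap, at 6.15, 6.96 and 6.89 for WT against 22.2, 9.30 and 7.30 for MED13cTg libraries. Each of these markers by itself overlapped between the genotypes. *Itgae* made up 17.4 FPKM of the sum in MED13cTg replicate 1 and was lowest in replicate 2, at 1.01 FPKM. The 3 natural killer cell markers summed to 69.4 to 75.8 FPKM for WT and to 12.4, 4.70 and 70.2 FPKM for MED13cTg libraries. Most of the WT sum was *Klrb1c*, at 67.5 to 75.3 FPKM, against 12.1, 0.747 and 68.9 FPKM for MED13cTg libraries. *Gzma* and *Ncr1* went otherwise, both lowest in MED13cTg replicate 1 (0.198 and 0.114 FPKM) and highest in replicate 2 (3.17 and 0.783 FPKM). The neutrophil marker *S100a8* was listed at 0 in MED13cTg replicate 1. *Ltf* made up 45.5 FPKM of the highest neutrophil sum, that of WT replicate 1, and was at 0.436 and 1.37 FPKM in WT replicates 2 and 3. The part of epididymis, germ cell, adipocyte and leukocyte RNA in the levels of the macrophage genes was not tested.

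**Figure D2:**
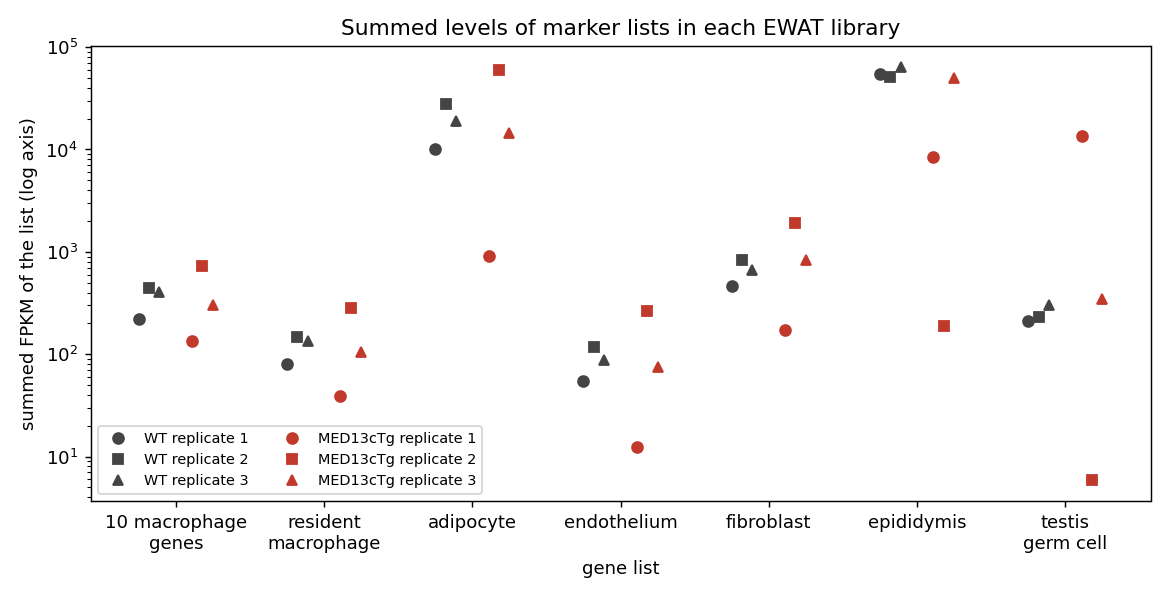
Summed FPKM of 7 gene lists in each EWAT library on a log axis, with symbols as for the single genes. The 10 macrophage genes, the adipocyte markers and the endothelial markers share an order, with MED13cTg replicate 1 lowest and replicate 2 highest, while epididymis markers are lowest in MED13cTg replicate 2 (187 FPKM) and germ cell markers highest in replicate 1 (13638 FPKM).

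Other macrophage genes of EWAT were counted by list, and by limma none in any list passed the adjusted test and 1, *Cd9*, had an unadjusted p under 0.05. Of 14 general macrophage genes, 6 had a log2 fold change above 0 (median -0.054), and 7 had MED13cTg replicate 1 lowest and replicate 2 highest. *Tyrobp*, which encodes a signalling adaptor of immune receptors, had 32.6, 49.2 and 40.7 FPKM across the WT libraries, against 22.1, 70.6 and 38.0 FPKM in MED13cTg EWAT. *Fcer1g*, another such adaptor, had 30.6, 47.9 and 43.8 FPKM across the WT libraries, against 19.3, 79.6 and 35.9 FPKM in MED13cTg EWAT. *Aif1*, which encodes the calcium-binding protein IBA1, was at 9.74, 9.76 and 11.5 FPKM in the WT group and at 200, 11.7 and 11.6 FPKM in MED13cTg EWAT. The other 5 libraries lay between 9.74 and 11.7 FPKM, and the transgenic libraries all lay above the WT ones, if by little in replicates 2 and 3. The high one was MED13cTg replicate 1, the library with 13638 FPKM of germ cell markers.

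Of 8 resident macrophage genes in EWAT, 7 had the order of the members and 5 had a log2 fold change above 0 (median 0.14). *Pf4*, a chemokine of platelets and of some resident macrophages, was at 11.4, 28.9 and 26.7 FPKM in WT mice and at 10.5, 79.4 and 18.6 FPKM in MED13cTg EWAT. *Folr2*, a folate receptor, was at 6.10, 18.3 and 14.7 FPKM across the WT libraries and at 6.01, 48.4 and 11.3 FPKM in MED13cTg EWAT. Of the partners of C1q in the classical complement pathway, 8 of 9 had that order too. *C3*, the central component of complement, was at 31.7, 62.8 and 47.7 FPKM in the WT littermates and at 5.25, 322 and 57.3 FPKM in MED13cTg EWAT. The 6 tested MHC class II genes, which present antigen, all had a log2 fold change below 0 (median -0.61). *H2-Aa* was at 62.4, 90.2 and 78.7 FPKM in the WT group and at 16.9, 177 and 65.5 FPKM in MED13cTg EWAT, again with both extremes in transgenic libraries. *H2-DMa*, named after its values were seen, did not overlap, at 29.0, 32.3 and 33.6 FPKM for WT against 11.8, 21.4 and 26.4 FPKM for MED13cTg libraries, all lower (log2 fold change -0.71, limma adjusted p = 0.738).

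Of 9 inflammatory genes only *Ccl2*, a chemokine that draws monocytes, passed the filter, at 0.990, 1.80 and 1.61 FPKM in WT mice and at 0.392, 5.46 and 0.906 FPKM in MED13cTg EWAT. Among alternative activation genes *Retnla*, which encodes a secreted resistin-like protein, was at 78.9, 362 and 300 FPKM across the WT libraries and at 13.1, 763 and 163 FPKM in MED13cTg EWAT. *Il34*, a ligand of the CSF1 receptor, was at 18.9, 21.6 and 24.4 FPKM in the WT littermates and at 3.41, 15.2 and 16.9 FPKM in MED13cTg EWAT, where every transgenic library was below every WT library (log2 fold change -1.05, limma adjusted p = 0.738). Such a separation downwards was found for 7.8% of the genes tested. For *Csf1*, the other ligand of this receptor, the genotypes overlapped (log2 fold change -0.016). Its transgenic replicates 1 to 3 held 3.27, 14.3 and 8.14 FPKM, against 6.38, 7.88 and 8.40 FPKM for WT. The median log2 fold changes were -0.46 over 7 lipid-associated macrophage genes, -0.42 over 4 monocyte genes, -0.77 over 3 alternative activation genes, -0.32 over 4 genes of CSF1 receptor ligands and CSF2 receptor, -0.43 over 6 partners of the endotoxin receptor and 0.066 over 3 integrin partners. Of the monocyte list, *Plac8* was at 468 to 611 FPKM in the WT group and at 91.2, 9.74 and 501 FPKM in MED13cTg EWAT, lowest in the library with the lowest epididymis sum. *Cd9*, a tetraspanin of the lipid-associated list, was likewise below every WT library (206 to 266 FPKM) in MED13cTg replicates 1 and 2, at 42.0 and 44.8 FPKM, and at 209 FPKM in replicate 3. *Gpnmb*, of the same list, in an entry shared with *2410003K15Rik*, was below every WT library (45.8 to 53.1 FPKM) in each MED13cTg library, at 28.6, 28.8 and 43.1 FPKM. So was the interleukin receptor gene *Il4ra* of the alternative activation list, at 4.78, 11.5 and 27.5 FPKM against 28.3 to 31.4 FPKM. Neither passed the test (limma adjusted p = 0.738 for both). *Cd36* of the lipid-associated list had the library order of the adipocyte markers. It was at 73.5, 523 and 287 FPKM in the WT group and at 13.1, 1317 and 233 FPKM in MED13cTg EWAT. *Ly6c2* of the monocyte list shared its entry with *Ly6a*. The part of epididymis and adipocyte RNA in the medians of these lists was not tested.

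In the ventricles, all 10 genes had a higher mean in MED13cTg than in WT mice, by 1.07 to 1.33 times, and a log2 fold change above 0, as 46.7% of all genes tested had, but none passed the adjusted test. Only *Csf1r* and *Cd14*, 2 of the 10, had every transgenic library above every WT library, which 3.46% of all genes had. No adjusted p among the 10 was below 0.966, while 7 of 12589 genes tested (0.0556%) passed.

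*Csf1r* was measured at 19.7, 18.0 and 15.7 FPKM in WT mice and at 23.0, 22.4 and 21.0 FPKM in MED13cTg ventricles. Every transgenic library was above every WT library. The means were 17.8 ± 1.98 and 22.1 ± 1.04 FPKM (SD, n = 3 each), a log2 fold change of 0.30 ± 0.11 (SE), with an unadjusted limma p of 0.0326 and an adjusted p of 0.966.

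*Cd14* stood at 6.96, 5.85 and 5.14 FPKM across the WT libraries and at 8.21, 8.36 and 7.29 FPKM in MED13cTg ventricles. It too was higher in each transgenic library than in any WT library. The means were 5.98 ± 0.917 and 7.95 ± 0.583 FPKM (SD, n = 3 each), a log2 fold change of 0.36 ± 0.13 (SE), with an unadjusted limma p of 0.0244 and an adjusted p of 0.966. An unadjusted p under 0.05 was thus reached by 2 of the 10 genes, where 4.73% of all genes tested reached it. None of the 10 had every transgenic library below every WT library, as 5.85% of all genes had.

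*Lyz2* stood at 234, 182 and 166 FPKM in the WT littermates and at 277, 262 and 190 FPKM in MED13cTg ventricles. MED13cTg replicate 3 lay below WT replicate 1, so the groups overlapped. The means were 194 ± 35.4 and 243 ± 46.3 FPKM (SD, n = 3 each; log2 fold change 0.32 ± 0.20, SE). *Cd68* was at 14.4, 9.61 and 8.27 FPKM in the WT group and at 13.7, 16.3 and 9.46 FPKM in MED13cTg ventricles. As for *Lyz2*, MED13cTg replicate 3 was the lowest transgenic library and WT replicate 1 the highest WT library.

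*C1qa* was measured at 112, 69.7 and 65.2 FPKM in WT mice and at 106, 116 and 80.2 FPKM in MED13cTg ventricles. *C1qb* stood at 117, 73.9 and 75.9 FPKM across the WT libraries and at 130, 112 and 83.0 FPKM in MED13cTg ventricles. *C1qc* stood at 111, 61.7 and 60.0 FPKM in the WT littermates and at 112, 106 and 75.9 FPKM in MED13cTg ventricles. WT replicate 1 stood with the higher transgenic libraries for all 3, and MED13cTg replicate 3 stood between it and the other WT libraries. The log2 fold changes were 0.31 ± 0.24, 0.29 ± 0.24 and 0.37 ± 0.27 (SE).

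*Itgam* was at 2.15, 1.42 and 1.11 FPKM in the WT group and at 2.53, 1.72 and 1.29 FPKM in MED13cTg ventricles. *Mrc1* was measured at 11.1, 9.9999 and 8.99 FPKM in WT mice and at 12.6, 10.5 and 10.3 FPKM in MED13cTg ventricles. *Cd163* stood at 9.89, 12.3 and 10.4 FPKM across the WT libraries and at 11.5, 8.14 and 15.2 FPKM in MED13cTg ventricles, and had the smallest log2 fold change of the 10, 0.06 ± 0.21 (SE). Both its lowest and its highest library were transgenic. It was also the one gene that did not share the order of the others: its correlation with the mean of the 10 over the 6 ventricle libraries was -0.241, against 0.882 to 0.966 for the other 9, a description in which the gene is part of the mean.

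**Figure D3:**
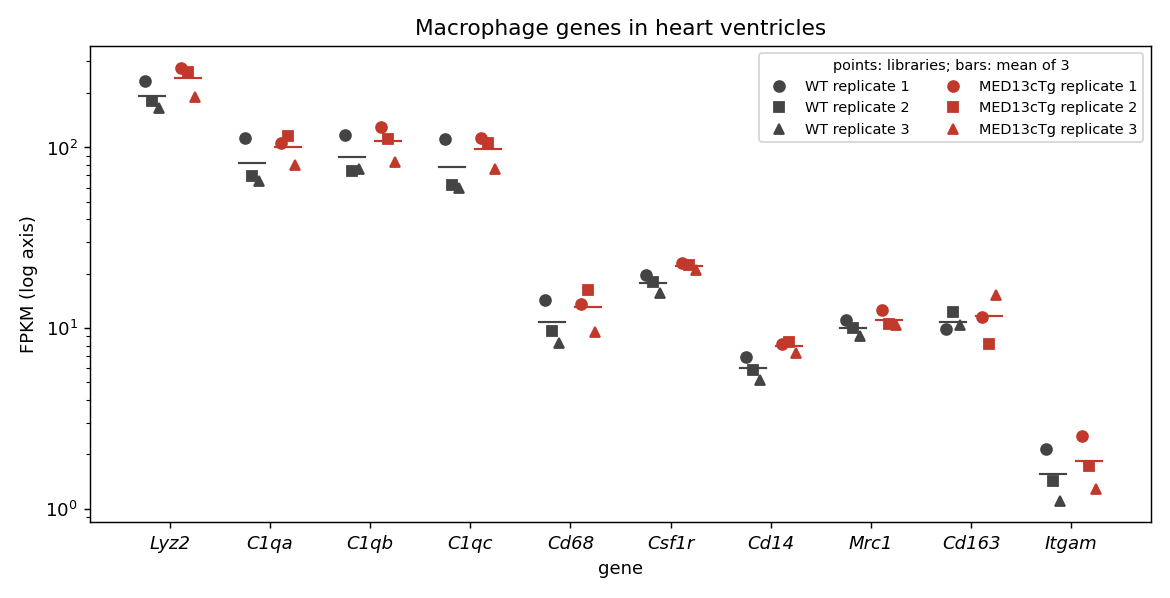
FPKM of the 10 macrophage genes in ventricles on a log axis, with 1 point for each library (grey, WT; red, MED13cTg; circle, square and triangle, replicates 1, 2 and 3) and a bar at each mean of 3. The red means lie above the grey ones, with non-overlapping points for *Csf1r* and *Cd14*.

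The median log2 fold change of the 10 genes in ventricles was 0.30, beside -0.014 over all genes tested. It was 0.46 without WT replicate 1 and 0.18 without WT replicate 3, the highest and the lowest value when 1 library was left out. For 7 of the 10 genes, all but *Csf1r*, *Cd163* and *Cd14*, every library of the first cluster (MED13cTg replicates 1 and 2 with WT replicate 1) was above every library of the other cluster. That held for 23.1% of the genes tested. The clusters were themselves drawn from the gene levels of these libraries. Since 2 of 3 libraries in the first cluster were transgenic and 1 of 3 in the other, the differences were also taken within clusters. Each such difference sets 1 library of one genotype against 2 of the other, so its spread is not known. *Csf1r* differed by 0.20 and 0.30 on the log2 scale in the first and the second cluster, and *Cd14* by 0.22 and 0.35. *Lyz2* differed by 0.20 and 0.13, *Cd68* by 0.050 and 0.076, *C1qb* by 0.036 and 0.15, and *Mrc1* by 0.053 and 0.11. These 6 genes were higher in MED13cTg ventricles within both clusters, as were 21.1% of the genes tested. *C1qa*, *C1qc*, *Itgam* and *Cd163* were at -0.021, -0.026, -0.024 and -0.026 in the first cluster and at 0.25, 0.32, 0.021 and 0.40 in the second. With the cluster as a covariate the median log2 fold change of the 10 genes was 0.13. No label names a batch for these clusters.

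**Figure D4:**
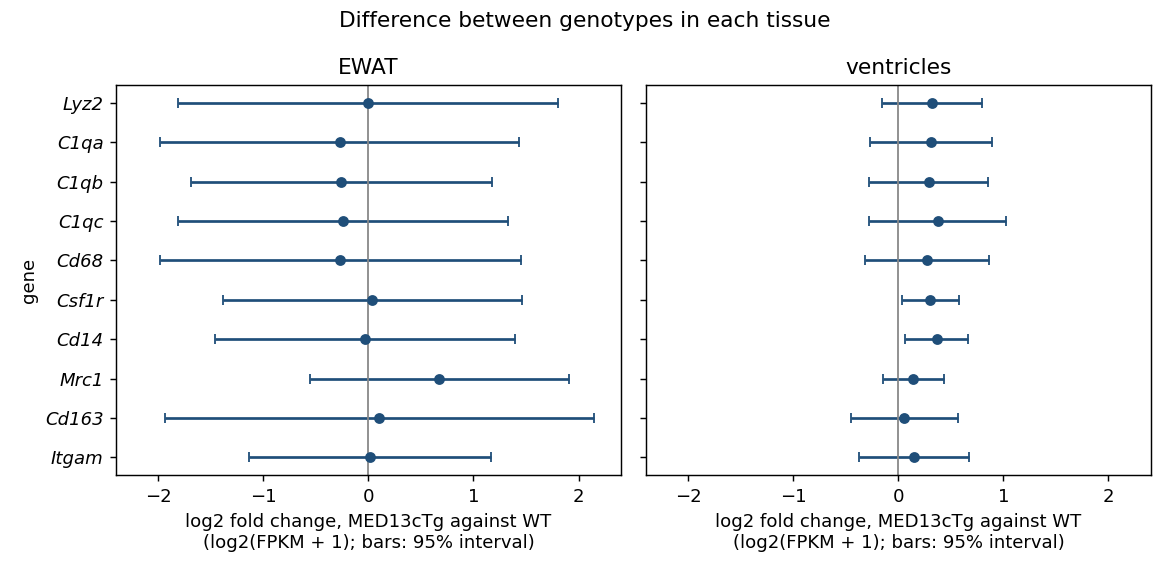
log2 fold change between MED13cTg and WT mice for the 10 macrophage genes in EWAT and in ventricles, with 95% intervals from limma on log2(FPKM + 1). All EWAT intervals span 0, and in ventricles those of *Csf1r* and *Cd14* lie above 0 before adjustment.

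Other macrophage genes in the ventricles had the same sign more often than not, and none passed the adjusted test. Of 14 general macrophage genes, 13 had a log2 fold change above 0 (median 0.40), 2 with an unadjusted p under 0.05; so had 1 gene each of the monocyte, alternative activation, CSF1 receptor ligand and integrin lists. *Tyrobp* stood at 78.9, 39.9 and 37.4 FPKM in the WT littermates and at 83.2, 76.3 and 44.6 FPKM in MED13cTg ventricles, with WT replicate 1 again among the transgenic libraries. Of 8 resident macrophage genes, 7 were above 0 (median 0.21). *Pf4* was at 52.4, 24.1 and 23.2 FPKM in the WT group and at 67.5, 57.9 and 33.0 FPKM in MED13cTg ventricles.

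All 6 tested MHC class II genes had a log2 fold change above 0 (median 0.63), as 46.7% of all genes tested had. An unadjusted p under 0.05 was reached by 4 of them (4.73% of all genes), and 3 had every transgenic library above every WT library (3.46% of all genes). *H2-Aa* was measured at 33.0, 24.1 and 24.1 FPKM in WT mice and at 45.2, 45.8 and 41.7 FPKM in MED13cTg ventricles, with no overlap (log2 fold change 0.70, limma adjusted p = 0.758). *Cd74*, the invariant chain that guides class II molecules, shared its entry with *Mir5107* and was at 69.4, 53.7 and 50.4 FPKM across the WT libraries and at 139, 113 and 88.0 FPKM in MED13cTg ventricles, also with no overlap (log2 fold change 0.95, limma adjusted p = 0.761). *H2-Eb1* overlapped, at 33.2, 20.3 and 24.8 FPKM in WT mice and at 35.6, 39.8 and 29.8 FPKM in MED13cTg ventricles. *Csf1*, the ligand of the receptor encoded by *Csf1r*, was at 17.5, 16.1 and 18.4 FPKM in the WT littermates and at 25.3, 27.3 and 20.3 FPKM in MED13cTg ventricles, each above every WT library (log2 fold change 0.45, limma adjusted p = 0.958). The other ligand, *Il34*, was at 5.89 to 5.94 FPKM in the WT group and at 4.61, 4.47 and 6.98 FPKM in MED13cTg ventricles, and overlapped.

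Partners of the complement and endotoxin genes had medians near 0. Of 9 classical complement partners 6 had a log2 fold change above 0 (median 0.028), and of 6 endotoxin receptor partners 4 did (median 0.021). The 3 tested integrin partners had a median of 0.21, with *Itgb2*, the chain that pairs with CD11b, at 3.59, 2.72 and 2.19 FPKM across WT and 3.45, 4.24 and 2.63 FPKM in MED13cTg ventricles. The medians were 0.071 over 6 lipid-associated macrophage genes, 0.32 over 3 monocyte genes, 0.29 over 3 alternative activation genes and 0.20 over 4 genes of CSF1 receptor ligands and CSF2 receptor, and the 2 tested inflammatory genes were at 0.45 for *Nos2* and 0.55 for *Ccl2*.

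Markers of some other leukocytes were higher in MED13cTg ventricles by sum. The 5 mast cell markers, all tested, summed to 7.82 to 9.30 FPKM in WT and to 11.2 to 17.6 FPKM in MED13cTg ventricles, with no overlap. The 3 natural killer cell markers, 1 of them tested, summed to 1.63 to 2.08 FPKM in WT and to 2.57 to 5.43 FPKM in MED13cTg ventricles. The 8 neutrophil markers found, 2 of them tested, summed to 2.25 to 10.8 FPKM in WT and to 5.78 to 23.2 FPKM in MED13cTg ventricles, with WT replicate 1 among the transgenic libraries, and the 5 B cell markers to 3.00 to 4.56 and 4.03 to 8.46 FPKM. The 6 T cell markers, at 2.48 to 3.61 and 3.28 to 5.96 FPKM, and the 5 dendritic cell markers, at 11.7 to 13.9 and 12.1 to 14.4 FPKM, overlapped too. Markers of endothelium and fibroblasts overlapped between genotypes, at 250.7 to 305 and 627 to 760 FPKM across WT libraries and 269 to 378 and 535 to 807 FPKM in MED13cTg ventricles. Cardiomyocyte markers, which define the tissue, summed to 50335 to 56284 FPKM for WT and 51556 to 79382 FPKM in MED13cTg ventricles. The part of these cells in the levels of the 10 genes was not tested.

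Within a library, *Lyz2* ranked highest and the C1q genes next in all 12 libraries, and *Itgam* lowest in 11. The places between them varied: *Cd163* ranked 9 or 10 in EWAT and 6 to 9 in ventricles, *Cd68* 5 to 7 and 6 to 8, and *Mrc1* 5 to 8 in EWAT and 7 in every ventricle library. Among WT means in EWAT, *C1qb* (73.7 ± 24.6 FPKM), *C1qa* (72.2 ± 26.2) and *C1qc* (64.7 ± 18.1) did not differ beyond their spread (SD, n = 3), and they were followed by *Cd68* (14.3 ± 2.29 FPKM), *Csf1r* (11.4 ± 3.47), *Cd14* (6.61 ± 0.566), *Mrc1* (5.21 ± 2.19), *Cd163* (3.49 ± 1.83) and *Itgam* (1.62 ± 0.441). Over the WT libraries the ranges of *Cd68* and *Csf1r* overlapped, as did those of *Cd14* and *Mrc1*, *Mrc1* and *Cd163*, and *Cd163* and *Itgam*. Within each WT EWAT library, however, the order from *Cd68* to *Itgam* was the same, and *C1qc* was below *C1qb* (0.776 to 0.973 times). *C1qc* was below *C1qb* in each WT ventricle library too (0.791 to 0.947 times). *Lyz2* lay above the C1q genes within every WT library of both tissues. Its range over the WT libraries overlapped theirs in EWAT, where it was at 58.1 FPKM in replicate 1, but not in ventricles. Among WT means in ventricles the order after the C1q genes was *Csf1r* (17.8 ± 1.98 FPKM), *Cd163* (10.9 ± 1.30), *Cd68* (10.8 ± 3.21), *Mrc1* (10.01 ± 1.04), *Cd14* (5.98 ± 0.917) and *Itgam* (1.56 ± 0.534), where *Cd163*, *Cd68* and *Mrc1* did not differ beyond their spread.

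Ratios between genes of 1 library do not depend on how that library was scaled, and were set side by side for the tissues without a test, since the tables were made separately. The C1q genes stayed in nearly equal proportion: *C1qa* was 0.798 to 1.14 times *C1qb* over the EWAT libraries and 0.816 to 1.04 times over the ventricle libraries, and *C1qc* was 0.776 to 1.02 and 0.791 to 0.950 times *C1qb*. The EWAT ranges include MED13cTg replicates 1 and 2, between which *C1qb* itself differed 4.20-fold. In these replicates *C1qa* was 0.798 and 1.11 times *C1qb*, and *C1qc* 0.804 and 1.02 times. Across the WT EWAT libraries the ratios were 0.891 to 1.14 and 0.776 to 0.973.

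Relative to *Cd68*, all genes compared but *Cd14* had higher values in heart than in fat across the WT libraries. *Csf1r* was 0.636 to 0.892 times *Cd68* in WT EWAT and 1.37 to 1.90 times in WT ventricles. *Lyz2* was 4.97 to 8.93 times *Cd68* in WT EWAT and 16.3 to 20.1 times in WT ventricles. *Cd163* was 0.122 to 0.316 times *Cd68* in WT EWAT and 0.688 to 1.28 times in WT ventricles, and *Mrc1* was 0.233 to 0.441 and 0.769 to 1.09 times. *C1qb* was 4.04 to 6.16 times *Cd68* in WT EWAT and 7.69 to 9.18 times in WT ventricles, and *Itgam* was 0.0960 to 0.126 and 0.134 to 0.149 times. No WT library of one tissue reached the range of the other for these 6 ratios. *Cd14* was the exception among the ratios to *Cd68* taken in WT libraries, at 0.416 to 0.519 times *Cd68* in WT EWAT and 0.484 to 0.622 times in WT ventricles, and overlapped. With the MED13cTg libraries included, the tissues also overlapped for *C1qb* (4.03 to 7.88 in EWAT, 6.87 to 9.49 in ventricles). So they did for *Itgam* (0.0960 to 0.176 and 0.106 to 0.185) and *Mrc1* (0.233 to 2.06 and 0.647 to 1.09). The ratio of *Mrc1* to *Cd68* was 2.06 in MED13cTg EWAT replicate 1, where the other 5 EWAT libraries lay between 0.233 and 0.536, and that of *Csf1r* to *Cd68* was 1.37 there, the highest of the EWAT libraries.

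**Figure D5:**
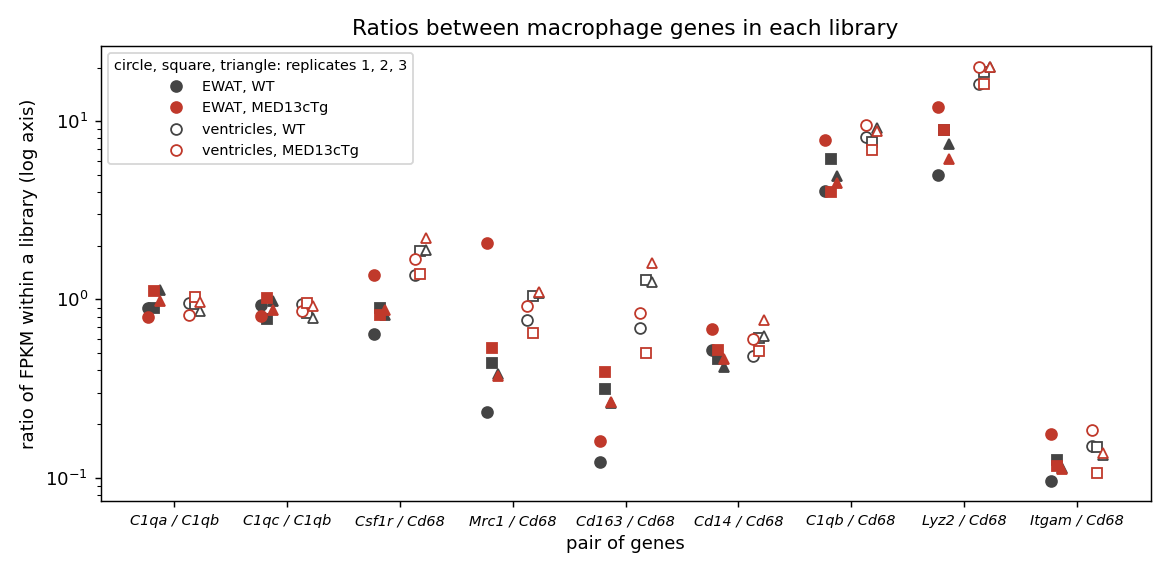
Ratios of FPKM between pairs of macrophage genes within each library on a log axis (filled, EWAT; open, ventricles; grey, WT; red, MED13cTg; circle, square and triangle, replicates 1, 2 and 3). *C1qa* and *C1qc* stay near *C1qb* in every library, and *Mrc1* over *Cd68* is highest in MED13cTg EWAT replicate 1 (2.06).

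The genes outside the 10 whose levels over the 6 EWAT libraries were most like the mean of the members were *Srpx2*, *Pcca*, *Tmeff2*, *Alox5ap* and *Ugp2*, with Pearson correlations of 0.997 to 0.999. Among them *Alox5ap* encodes the protein that activates leukotriene synthesis in leukocytes. *Srpx2*, *Pcca* and *Tmeff2* had higher correlations than *Alox5ap*, and none of these EWAT genes was on a macrophage or leukocyte list used here. A shared order of libraries does not name the cell that made the RNA. In the ventricles they were *Tcirg1*, *H2-Ob*, *Unc93b1*, *Cd53* and *Six5*, at 0.990 to 0.997. Of these *Tcirg1* encodes a subunit of the vacuolar proton pump, *H2-Ob* an MHC class II chain, *Unc93b1* a chaperone of Toll-like receptors and *Cd53* a tetraspanin of leukocytes. These correlations describe 6 libraries of 2 genotypes in each tissue, and in EWAT the lowest and the highest library for 9 of the 10 genes were MED13cTg replicates 1 and 2.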

How the data were processed

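RNA-seq libraries were made from ventricles and EWAT, and the authors aligned reads with TopHat to mm9, the build in the submitters' processing notes, and quantified them with Cufflinks at default settings (versions not given in the sources used here). The deposited values are FPKM per gene and library, so read depth is unknown; from the steps of low values, depth relative to WT replicate 1 was 0.68 to 0.94 in the other EWAT libraries and 0.93 to 1.0 in the ventricle libraries. Genes were matched by symbol. A separate fit was made for each tissue with limma 3.58.1 (R 4.3.3) on log2(FPKM + 1), keeping genes whose mean reached 1 FPKM, with a trended prior and Benjamini-Hochberg adjustment over all genes tested (threshold 0.05). Fold changes are on that scale, which understates changes of low genes. The script was tested on simulated data, with a spread taken from the WT libraries in both genotypes and 200 genes changed by 2 on the log2 scale. It recovered 194 of them in EWAT and 199 in ventricles, with 19 and 16 false calls. The MED13cTg libraries of EWAT varied more than that, so the simulation does not show what could be detected there.

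The 10 genes, the lists and the rule for named genes (at most the 3 with the highest mean FPKM per list and tissue, and the 5 genes most like the members) were chosen with earlier results of these data known. The labels call the mice littermates; whether same-numbered libraries of the tissues came from 1 mouse is not stated, and p-values measure only the spread between these libraries. Same-numbered EWAT libraries deviated together from their group means (correlations 0.347, 0.304 and 0.144), so the replicate number was also fitted as a block. Differently numbered EWAT libraries had correlations of -0.417 to 0.168, the highest above the lowest same-numbered one, so the numbers need not mark pairs. Alternatives were another pseudocount, filters, scalings, library weights, the ventricle clusters as covariate and leaving out libraries. An unnamed column of the EWAT table was not used (1 column). Joined entries such as *Cd74* with *Mir5107* cannot be separated.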

Additional observations from a re-analysis of the deposited data

How the results depend on the processing

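None of the 10 genes passed the threshold under any of 16 alternatives in EWAT or 15 in ventricles (adjusted p 0.442 to 1.0 and 0.0977 to 1.0); the EWAT fit without MED13cTg replicates 1 and 2 leaves 1 transgenic library, assumed to vary like the WT libraries, and says nothing of stability. Of 158 values compared in EWAT, 30 changed sign, and of 149 in ventricles, 5. In EWAT the sign changed to -0.050 for *Cd163* and -0.068 for *Itgam* with a pseudocount of 0.1 FPKM; to 0.090 for *Lyz2* and 0.046 for *Cd14* with median-of-ratios scaling; to -0.085 for *Csf1r*, 0.0091 for *Lyz2* and -0.041 for *Itgam* with quantile scaling; to 0.096 for *Cd68*, 0.10 for *Lyz2* and 0.26 for *Cd14* with library weights; to -0.046 for *Itgam* without MED13cTg replicates 1 and 2; and to 0.25 for *Lyz2*, 0.012 for *C1qc* and 0.19 for *Cd14* after rescaling without epididymis and germ cell genes, which shifted the median over all genes tested from 0.012 to 0.23 and that of the 10 to 0.18, below it. Leaving out 1 EWAT library gave log2 fold changes of -0.90 to 0.47 for *Cd68*, -0.47 to 0.57 for *Csf1r*, -0.64 to 0.86 for *Cd163*, -0.71 to 0.58 for *Lyz2*, -0.88 to 0.37 for *C1qa*, -0.75 to 0.27 for *C1qb*, -0.83 to 0.35 for *C1qc*, -0.60 to 0.52 for *Cd14*, -0.36 to 0.36 for *Itgam* and 0.26 to 1.00 for *Mrc1*. *Mrc1* was at 0.026 without MED13cTg replicates 1 and 2. In ventricles the sign changed to -0.061 for *Cd163* with library weights and to -0.0017 for *Itgam* with the cluster as covariate, and leaving out 1 library gave -0.14 to 0.27 for *Cd163* and -0.016 to 0.31 for *Itgam*. Calls over all genes in EWAT, 2 in the report, were 0 without a filter, with library weights or with the replicate block, 19 without MED13cTg replicates 1 and 2, and 1 to 5 without 1 library. In ventricles, 7 in the report, they were 3 at a filter of 5 FPKM, 15 with library weights, 4 with the replicate block and 4 to 9 without 1 library. With the replicate block 0 of the 10 genes passed in either tissue, with lowest adjusted p of 0.751 in EWAT and 0.915 in ventricles. Same-numbered ventricle libraries did not deviate together (correlations 0.085, -0.192 and 0.140). The cause of these changes was not tested. The standard errors of the 10 genes were 0.46 to 0.83 in EWAT and 0.11 to 0.27 in ventricles, each with 3 libraries a group; read depth is unknown in both.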
